A study of Homo sapiens with 15 samples.

Results

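RASSF2 to RASSF10, the members of the Ras association domain family other than RASSF1, were read in xenograft tumors by 12 probes, which are all the probes whose RefSeq accession names one of these 9 genes, out of 34127 probes on the array. A total of 10 probes of 8 genes were well above background in all 15 tumors and entered the tests. The RASSF9 probe and the second of the RASSF10 probes (A_33_P3412143) were not well above background in any tumor and are not compared. The rule that picks the members uses gene names and no measured value.

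The tumors grew in athymic nude mice from HCT116 cells, a human colon cancer line, and were excised at day 35, and the RNA of 1 tumor was hybridized to each single-color array. Before injection the cells had been transfected with the empty pCDNA3 vector, Myc-tagged MOAP-1, MOAP-1 with 1 lysine changed to arginine (K264R or K278R), or HA-tagged RASSF1A, with 3 independent tumors for each of the 5 constructs. The transfection was transient, so a tumor need not have kept the construct, and the mouse cells of the host were part of the tissue. MOAP-1 is a death-promoting protein that binds the RASSF1A tumor suppressor and BAX, and the arrays address which transcripts differ between tumors that began with these constructs.

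The family takes its name from a domain that can bind small GTPases of the Ras group. RASSF1 to RASSF6 carry this domain near the C terminus, followed by a SARAH domain through which they pair with the Hippo kinases MST1 and MST2, whereas RASSF7 to RASSF10 carry it at the N terminus and lack the SARAH domain. Several members are silenced by promoter methylation in cancer, and RASSF1A and RASSF6 are known partners of MOAP-1.

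A level is the log2 intensity of a probe minus that of the 75th percentile of its array, which is set to 0, so that levels are compared between tumors and not between probes. The 75th percentile itself lay between 496 and 1402 intensity units, no spot was saturated, and the 8 epithelial markers (among them EPCAM and KRT8) were above background in all tumors. Vector tumors 1 to 3 and RASSF1A tumor 3 shared a slide, RASSF1A tumors 1 and 2 had another slide and the other scan day, the K264R tumors had one of their own, and MOAP-1 tumor 2 lay with the K278R tumors apart from MOAP-1 tumors 1 and 3. Slide and construct therefore mostly cannot be told apart. In RNA of a whole tumor, fewer cells of a kind and less RNA per cell cannot be told apart either.

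MOAP1 read -0.18, -0.53, and -0.13 with vector and 0.34, 0.71, and 0.71 with MOAP-1. Its change against vector was 0.86 ± 0.14 (SE) in the MOAP-1 tumors (limma, adjusted p = 0.0008413). The single RASSF1 probe lay between 1.52 and 1.94 in all tumors, and its change in the RASSF1A tumors was -0.12 (95% interval -0.34 to 0.11, limma, adjusted p = 0.671). Whether either probe lies within the transfected sequence is not given in the sources used here, so these values do not check the labels.

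**Figure D1:**
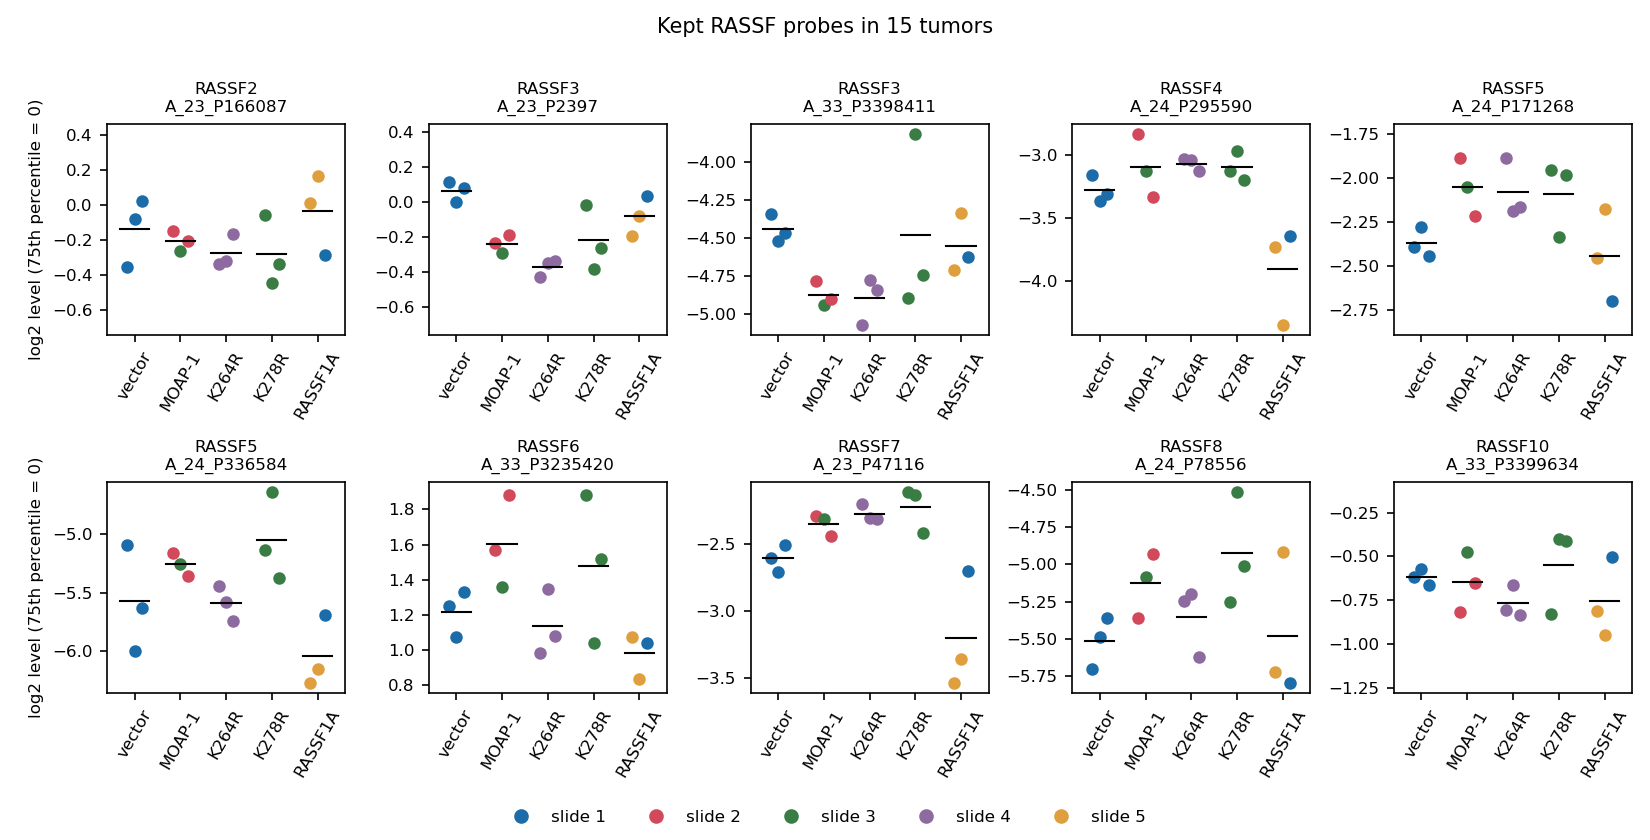
Log2 level of the 10 RASSF probes above background, relative to the 75th percentile of the array, in each of the 15 tumors by construct. Points are tumors, from replicate 1 at the left to 3 at the right and colored by slide, and lines are means of 3 tumors; each panel has its own vertical range. RASSF4 and RASSF7 have their lowest points among the RASSF1A tumors.

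Across all 5 constructs, 4 of the 10 probes passed the F test of limma after Benjamini-Hochberg adjustment, against 43.4% of the 30591 probes tested. They were RASSF7 (F = 11.1, adjusted p = 0.002322), RASSF4 (F = 8.71, adjusted p = 0.005429), the RASSF3 probe A_23_P2397 (F = 5.39, adjusted p = 0.02473), and the RASSF5 probe A_24_P336584 (F = 5.39, adjusted p = 0.02479). RASSF2, RASSF6, RASSF8, and RASSF10 did not pass, nor did the other probes of RASSF3 and RASSF5.

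The promoters of RASSF3, RASSF4, RASSF5, and RASSF6 are shown because changes of these genes are described next and because CG dinucleotides are the letters at which this family is silenced in cancer, and RASSF7 is named only. Each is the stretch of 250 bases before a start listed for the gene, from RefSeq on GRCh38.p14, with each CG in capitals. The stretch for RASSF3 is chr12:64610245-64610494 on the plus strand, that for RASSF4 chr10:44959552-44959801 on the plus strand, that for RASSF5 chr1:206507281-206507530 on the plus strand, and that for RASSF6 chr4:73620632-73620881 on the minus strand.
RASSF3: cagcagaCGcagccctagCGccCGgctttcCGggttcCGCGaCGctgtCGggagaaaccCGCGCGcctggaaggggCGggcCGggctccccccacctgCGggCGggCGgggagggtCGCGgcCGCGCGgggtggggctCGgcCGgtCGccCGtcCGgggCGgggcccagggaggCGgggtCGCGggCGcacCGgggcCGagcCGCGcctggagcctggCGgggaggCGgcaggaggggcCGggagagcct
RASSF4: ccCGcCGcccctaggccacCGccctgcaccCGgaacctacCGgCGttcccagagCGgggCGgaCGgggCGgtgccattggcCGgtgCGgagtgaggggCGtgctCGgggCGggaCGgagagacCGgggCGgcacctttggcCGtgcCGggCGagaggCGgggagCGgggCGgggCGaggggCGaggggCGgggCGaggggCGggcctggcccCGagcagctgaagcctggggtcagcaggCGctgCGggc
RASSF5: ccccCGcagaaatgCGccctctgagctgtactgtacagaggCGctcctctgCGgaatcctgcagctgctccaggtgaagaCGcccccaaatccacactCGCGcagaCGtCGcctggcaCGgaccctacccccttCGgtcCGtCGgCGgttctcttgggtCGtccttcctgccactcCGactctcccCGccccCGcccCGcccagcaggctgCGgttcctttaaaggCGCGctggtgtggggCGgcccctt
RASSF6: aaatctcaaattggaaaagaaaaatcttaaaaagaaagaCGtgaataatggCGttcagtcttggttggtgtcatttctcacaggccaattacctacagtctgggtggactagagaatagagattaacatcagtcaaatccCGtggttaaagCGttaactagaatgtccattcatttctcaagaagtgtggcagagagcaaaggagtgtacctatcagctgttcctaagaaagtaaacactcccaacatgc
The RASSF3 stretch held 38 CG, a count reached by 3.28% of 35114 promoters of the same length, and the RASSF4 stretch held 32, reached by 9.52%. The RASSF5 stretch held 23 CG, reached by 25.8%, and a second listed start of that gene had 10. The RASSF6 stretch held 4 CG, reached by 70.7%, and a second listed start had 13. The letters GGGCGG, the core of a GC box, occurred 9 times in the RASSF4 stretch when both strands were searched. That count was reached by 0.157% of all promoters, and 42.6% held the letters at least once. RASSF2 (7 CG) and RASSF9 (5 CG) also had a listed stretch. No methylation was measured, and these counts describe the letters only.

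Of the 7 comparisons between constructs that were run, members were called, that is, passed an adjusted p of 0.05 with a fold of 1.5 or more, in that of MOAP-1 tumors with RASSF1A tumors alone. The K264R and K278R tumors were not tested against the RASSF1A tumors, and their levels are given beside those of the MOAP-1 tumors. Here RASSF4, RASSF5, RASSF6, and RASSF7 were each higher in MOAP-1 tumors, by 0.62 to 0.85 on the log2 scale, and none was lower. These 4 of 10 probes stand against 21.2% of all probes called in either direction and 13% called higher. Tumors of the 2 constructs did not overlap for 5 of the 10 probes, near the 51.2% of all probes, and the median difference was 0.37 over the members and -0.01 over all probes.

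RASSF7, an N-terminal member known for roles in mitotic spindle formation and in restraint of stress kinase signaling, showed the largest difference among the members. MOAP-1 tumors had levels of -2.29, -2.31, and -2.44 and RASSF1A tumors of -3.54, -3.36, and -2.70, whereas the vector tumors read -2.60, -2.71, and -2.50. All MOAP-1 tumors lay above all RASSF1A tumors, and RASSF1A tumors 1 and 2 lay below every other tumor, while RASSF1A tumor 3 lay within the vector range. The K264R tumors (-2.31 to -2.20) and the K278R tumors (-2.42 to -2.11) were all above the vector and RASSF1A tumors. The difference between MOAP-1 and RASSF1A tumors was 0.85 ± 0.17 (SE, n = 3 and 3, limma, adjusted p = 0.001814), or 1.81-fold.

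RASSF4, a C-terminal member that binds activated Ras and the MST kinases, read -2.83, -3.13, and -3.33 with MOAP-1 and -3.73, -4.35, and -3.64 with RASSF1A. The vector tumors, at -3.16, -3.36, and -3.31, overlapped the MOAP-1 tumors. The K264R tumors read -3.13 to -3.03 and the K278R tumors -3.20 to -2.96, and every RASSF1A tumor was below every tumor of the other 4 constructs. The difference was 0.81 ± 0.17 (SE, n = 3 and 3, limma, adjusted p = 0.002446), or 1.76-fold. Its promoter stretch, shown above, is the one in which GGGCGG occurred 9 times, and a link of that count with these levels was not tested.

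RASSF5, which encodes the Ras and Rap effectors NORE1 and RAPL, has a probe for each of 2 RefSeq transcripts. The probe A_24_P336584 (transcript NM_182664) read -5.16, -5.25, and -5.36 with MOAP-1 and -6.28, -6.15, and -5.69 with RASSF1A, without overlap. The vector tumors, at -5.09, -6.00, and -5.63, ran from above the MOAP-1 tumors into the RASSF1A range, and the K264R tumors read -5.74 to -5.44 and the K278R tumors -5.37 to -4.63. The difference between MOAP-1 and RASSF1A tumors was 0.78 ± 0.23 (SE, n = 3 and 3, limma, adjusted p = 0.01691). The probe A_24_P171268 (transcript NM_182663) read -1.88, -2.05, and -2.22 against -2.46, -2.18, and -2.70, with RASSF1A tumor 2 inside the MOAP-1 range. Its difference of 0.39 (95% interval 0.07 to 0.72, limma, adjusted p = 0.05542) was not called. At this probe the vector tumors read -2.44 to -2.28, the K264R tumors -2.19 to -1.88, and the K278R tumors -2.34 to -1.95.

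RASSF6, which promotes apoptosis and binds MOAP-1 as well as the MST kinases, read 1.57, 1.36, and 1.88 with MOAP-1 and 1.07, 0.83, and 1.04 with RASSF1A. The groups did not overlap, and the vector tumors, at 1.25, 1.07, and 1.33, lay between them. K264R tumors (0.98 to 1.35) and K278R tumors (1.04 to 1.88) reached into the RASSF1A range. The difference was 0.62 ± 0.19 (SE, n = 3 and 3, limma, adjusted p = 0.02139), or 1.54-fold.

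No MOAP-1 tumor shared a slide with a RASSF1A tumor, so slide and construct cannot be told apart in these differences. The slide and scan day of RASSF1A tumors 1 and 2 moved with part of them. Against the mean of the vector tumors, RASSF1A tumor 3, on the same slide, differed by -0.10 for RASSF7, whereas the other RASSF1A tumors differed by -0.85. The corresponding values were -0.36 and -0.76 for RASSF4, -0.12 and -0.64 for RASSF5 A_24_P336584, and -0.18 and -0.27 for RASSF6. With the scan day as a term, the RASSF1A mean rested on RASSF1A tumor 3 alone and the differences from MOAP-1 were 0.36 for RASSF7, 0.55 for RASSF4, 0.44 for RASSF5 A_24_P336584, and 0.57 for RASSF6, none of them past the threshold (limma, adjusted p = 0.1422, 0.1359, 0.3865, and 0.2115). The same fit called RASSF5 A_24_P171268 (0.65, limma, adjusted p = 0.04745). With normexp as background model the 4 differences, in the same order, were 0.50, 0.37, 0.05, and 0.58, and none was called. With the slide as a random block all 4 were called too, but the estimated correlation within a slide was -0.075, so that fit took no shared slide effect out of the values.

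Means of some marker lists also separated these tumors, by 1 gene each. The mean over the 8 epithelial markers was 3.02 to 3.20 in MOAP-1 and 2.73 to 3.0 in RASSF1A tumors. ELF3, an epithelial transcription factor, was higher in MOAP-1 tumors by 1.81 (limma, adjusted p = 0.0006391), the median difference of the list was -0.04, and without ELF3 the means overlapped, at 3.49 to 3.60 against 3.45 to 3.57. The mean over 9 leukocyte markers was 0.36 to 0.57 against 0.66 to 0.92, with all 9 above background in every tumor. TYROBP, an adapter of myeloid receptors, differed by -2.16 (limma, adjusted p = 4.545e-05) and PTPRC by 0.56, and without TYROBP the means overlapped, at 0.33 to 0.51 against 0.40 to 0.64. The mean over 10 fibroblast markers overlapped, at -4.16 to -1.62 against -3.50 to -2.85. Of these, LUM was above background in no tumor and POSTN in 1. The median difference of the other 8 was 0.80, with no gene called. The endothelial list overlapped too, at -3.51 to -2.83 against -3.28 to -3.03. How far human probes read mouse RNA is unknown here, and the part of cell content in the RASSF differences was not tested. The part of slide or scan day cannot be told apart, since the fit with scan day rested on RASSF1A tumor 3 alone.

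**Figure D2:**
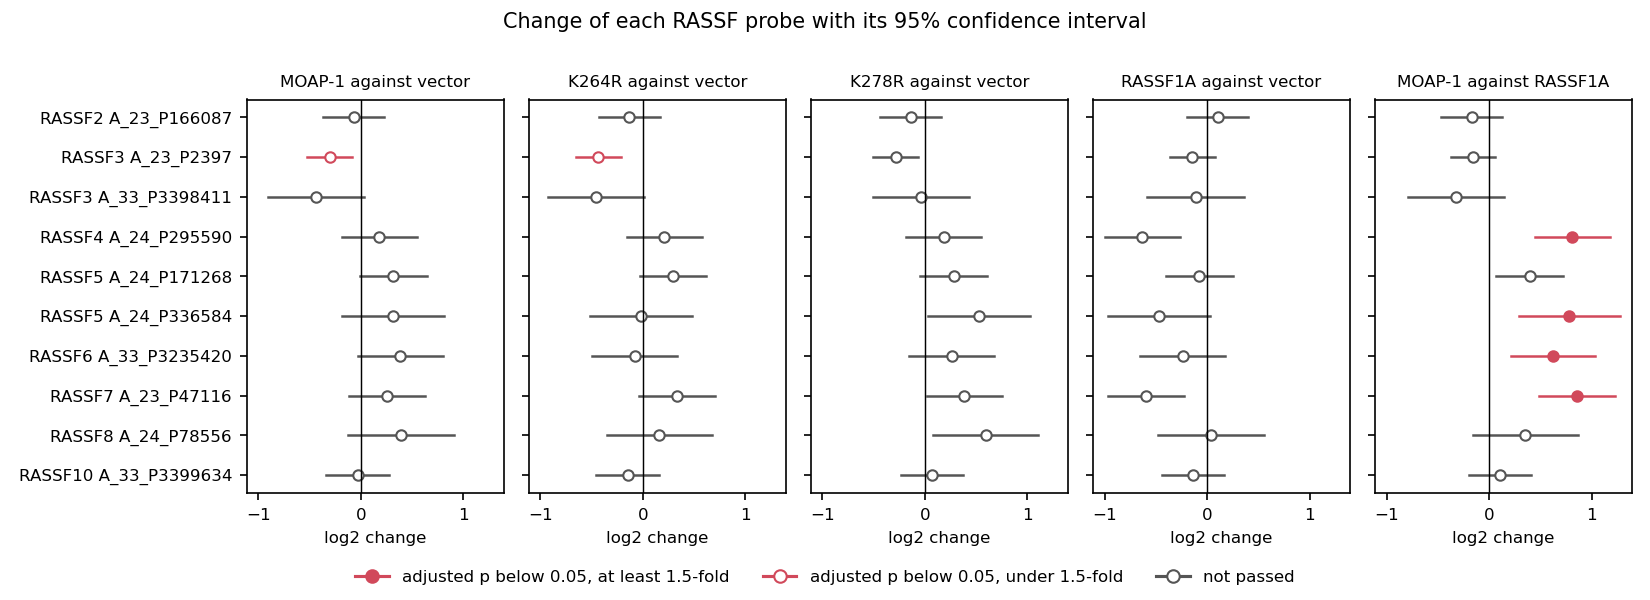
Log2 change of the 10 RASSF probes in 5 comparisons, with 95% confidence intervals from limma on 3 tumors per construct; filled red points are called, and open red points passed the adjusted p at less than 1.5-fold. The filled points are all in the comparison of MOAP-1 with RASSF1A tumors, and the open red points are RASSF3 in MOAP-1 and K264R tumors.

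Against the vector tumors no member was called with any construct. With MOAP-1 the count was 0 of 10, against 16.6% of all probes, with K264R 0 of 10, against 19.4%, and with K278R 0 of 10, against 10.9%. With RASSF1A the count was 0 of 10, and no probe on the array was called (0%). At an unadjusted p below 0.05 limma gave 1, 1, 4, and 2 member probes for the 4 constructs in that order, beside 42.4%, 45%, 36.2%, and 12.1% of all probes. The methods' t-test with the 1.5-fold threshold and no adjustment gave 0 in each, beside 16.1%, 19.3%, 10.2%, and 0.611%. The 4 comparisons share the vector arrays and are not independent of each other. The median change of the members was 0.22, -0.05, 0.22, and -0.14, beside 0.02, -0.05, 0.06, and 0.02 over all probes. Groups did not overlap for 6, 6, 3, and 2 of the 10 probes, and for 48.5%, 52.8%, 37.3%, and 14.8% of all probes.

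Most fibroblast markers were not called in the same comparisons, although their median changes lay above 0. The median change of the 8 markers tested was 1.85 with MOAP-1, 0.50 with K264R, 1.72 with K278R, and 0.94 with RASSF1A. COL1A1 was called with MOAP-1 at 2.24 (limma, adjusted p = 0.04064) and PDGFRB with K278R at 1.34 (limma, adjusted p = 0.0425). The other 7 in each of these comparisons were not called, and none of the 8 was called with K264R or RASSF1A. The list mean covered 10 genes, with LUM and POSTN, which were not tested, included. It was -5.07 to -3.27 in vector tumors and overlapped in MOAP-1 tumors (-4.16 to -1.62), K264R tumors (-4.17 to -2.72), and RASSF1A tumors (-3.50 to -2.85), but not in K278R tumors (-2.97 to -1.95). The part of fibroblast content in the changes of RASSF genes and of their partners against vector was not tested.

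RASSF3, one of the shortest members and a tumor suppressor that can induce apoptosis, was the gene that passed at any fold. Its probe A_23_P2397 read 0.11, 0.00, and 0.08 with vector, -0.23, -0.29, and -0.19 with MOAP-1, and -0.43, -0.35, and -0.33 with K264R. Each of these MOAP-1 and K264R tumors was below all vector tumors, and the K264R tumors were also below all MOAP-1 tumors. The direct difference, MOAP-1 minus K264R, was 0.13 and did not pass (limma, adjusted p = 0.6411). In that comparison 19.4% of all probes did not overlap. At the other RASSF3 probe, A_33_P3398411, MOAP-1 and K264R tumors overlapped, with a difference of 0.02. The change of A_23_P2397 against vector was -0.30 ± 0.10 (SE, limma, adjusted p = 0.03808) with MOAP-1 and -0.43 ± 0.10 (SE, limma, adjusted p = 0.005225) with K264R, or 1.23-fold and 1.35-fold lower. At this threshold, without a fold limit, 14.5% and 19.8% of all probes were lower.

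The K278R tumors read -0.02, -0.38, and -0.26 at the same RASSF3 probe, a change of -0.28 (95% interval -0.50 to -0.07, limma, adjusted p = 0.06189) that did not pass. The RASSF1A tumors, at -0.19, -0.08, and 0.03, overlapped the vector tumors. The second RASSF3 probe, A_33_P3398411, had changes of -0.43 (95% interval -0.90 to 0.03) with MOAP-1 and -0.46 (95% interval -0.93 to 0.01) with K264R, neither of which passed. One K278R tumor stood apart at this probe, at -3.81 beside -4.89 and -4.74. The fall of A_23_P2397 with MOAP-1 no longer passed when any one MOAP-1 or vector tumor was left out (-0.33 to -0.28, limma, adjusted p = 0.0614 to 0.112) or when K264R tumor 3 was (limma, adjusted p = 0.05299). Neither fall passed under normexp, where the changes were -0.24 and -0.33. Leukocyte marker means were 0.54 to 0.72 in vector tumors, 0.36 to 0.57 in MOAP-1 tumors, and 0.26 to 0.42 in K264R tumors. TYROBP fell with both, by 1.70 and 1.65 (limma, adjusted p = 0.0003386 and 0.0002631), while PTPRC was called higher with MOAP-1 at 0.72 (limma, adjusted p = 0.008571). Without TYROBP the means were 0.35 to 0.49, 0.33 to 0.51, and 0.19 to 0.34, and their part in the RASSF3 values was not tested.

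With RASSF1A, the changes farthest from 0 among the members were those of RASSF4 (-0.63, 95% interval -1.0 to -0.26) and RASSF7 (-0.60, 95% interval -0.97 to -0.23), each with an adjusted p of 0.3412 in limma. Without RASSF1A tumor 3 both were called, at -0.76 for RASSF4 (limma, adjusted p = 0.0293) and -0.85 for RASSF7 (limma, adjusted p = 0.004186), when 4.6% of all probes were. The RASSF1A tumors left in that fit share neither slide nor scan day with the vector tumors, so construct, slide, and scan day cannot be told apart there. RASSF5 A_24_P336584 differed from vector by -0.47 (95% interval -0.96 to 0.03) and RASSF6 by -0.24 (95% interval -0.65 to 0.18).

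The K278R tumors had the highest mean level of RASSF8, a member linked to adherens junctions. Its levels were -5.25, -4.51, and -5.01 with K278R and -5.70, -5.49, and -5.36 with vector, without overlap. The change of 0.59 (95% interval 0.08 to 1.11, limma, adjusted p = 0.09229) was not called, although it was with the slide as a random block, at that correlation below 0 (0.62, limma, adjusted p = 0.04382), and when RASSF1A tumor 2 was left out (0.59, limma, adjusted p = 0.04421). RASSF5 A_24_P336584 changed by 0.53 with K278R (95% interval 0.03 to 1.02, limma, adjusted p = 0.1175). It was called at 0.77 without vector tumor 1 (limma, adjusted p = 0.03837). K278R tumor 2, whose array had the lowest 75th percentile (496), was the highest of the 15 tumors at both probes, and without it the changes were 0.38 for RASSF8 and 0.32 for RASSF5 A_24_P336584. With normexp both changes turned sign, to -1.43 and -1.41, and after spots of extreme background were left out to -0.16 and -0.15. The part of that array and of the fibroblast content given above in these values was not tested. RASSF7 differed from vector by 0.39 with K278R (95% interval 0.02 to 0.76, limma, adjusted p = 0.1237).

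RASSF2 and RASSF10, both often silenced by methylation in tumors, had the smallest spread of construct means. RASSF2 lay between -0.44 and 0.16 in all tumors, and its changes against vector ranged from -0.14 to 0.10. RASSF10, read at the probe A_33_P3399634, lay between -0.95 and -0.40, with changes from -0.15 to 0.07. The 95% intervals of these changes lay between -0.45 and 0.40. The other RASSF10 probe, named by the same transcript, was not well above background in any tumor, and which of the probes reads the gene was not tested.

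Changing 1 lysine of MOAP-1 went with no called difference in any member. MOAP-1 against K264R tumors gave 0 of 10 calls, with 1 probe of the whole array called (0.00327%), and MOAP-1 against K278R tumors gave 0 of 10, with none called (0%). An unadjusted p below 0.05 in limma was found for 1 member probe in the former and 0 in the latter, beside 10.9% and 9.22% of all probes. The methods' t-test without adjustment gave 0 member calls in both, beside 1.03% and 0.471%. The 1 probe was RASSF6, higher in MOAP-1 than in K264R tumors by 0.47 (95% interval 0.05 to 0.88, limma, adjusted p = 0.4303), without overlap. Intervals for the other probes reached as far as 0.83 for RASSF5 A_24_P336584 against K264R and -0.86 for RASSF3 A_33_P3398411 against K278R, so differences of up to that size lay within the error of 3 tumors each. On the slide that MOAP-1 tumor 2 shared with the K278R tumors, it differed from their mean by -0.46 to 0.07 over the 10 probes.

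Members that differed between MOAP-1 and RASSF1A tumors ran together over the 15 tumors, which share constructs and slides. They were picked for lying lower in the same RASSF1A tumors, so a positive r over the 15 tumors is partly built in. Pearson's r was 0.87 for RASSF4 with RASSF7, 0.79 for RASSF5 A_24_P336584 with RASSF7, and 0.73 for RASSF4 with RASSF5 A_24_P336584. After the mean of each construct was removed these became 0.45, 0.63, and 0.51. Removing the means does not take out the slide and scan day that part RASSF1A tumors 1 and 2 from RASSF1A tumor 3. RASSF6 ran less closely with RASSF4 and RASSF7, at 0.44 and 0.47 over the tumors and at -0.05 and -0.01 within constructs. RASSF2 ran opposite to RASSF4 and RASSF7, at -0.66 and -0.62.

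Among the genes with the pattern most like RASSF7 over the 15 tumors were CCND1, which encodes cyclin D1 (r = 0.98), HM13, a signal peptide peptidase (r = 0.98), and TAX1BP3 (r = 0.98). For RASSF4 they included CDA, cytidine deaminase (r = 0.95), and MIGA1 (r = 0.93). For RASSF3 at A_23_P2397 they included ALKBH2, a DNA repair demethylase (r = 0.95), and SCARNA12, a small Cajal body RNA (r = 0.94). These are among the highest of all kept probes with a gene name and describe likeness only. RASSF7 was lowest in RASSF1A tumors 1 and 2, which had another slide and scan day. The r values with RASSF7 can therefore rest largely on those tumors, and r within constructs is not given for these genes.

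Neighboring genes on the chromosome, chosen after values were seen, were set beside the 4 genes. They are the next and the second on each side among genes with a kept probe, so genes without a kept probe are passed over. HRAS, the Ras GTPase gene that lies second before RASSF7 on chromosome 11, was higher in MOAP-1 than in RASSF1A tumors by 1.2 ± 0.26 (SE, limma, adjusted p = 0.002715) and ran with RASSF7 at r = 0.96. It read -1.22, -0.70, and 0.08 with RASSF1A and 0.53, 0.68, and 0.56 with MOAP-1, so RASSF1A tumor 3 again lay nearest the rest. The r of HRAS with RASSF7 can therefore rest largely on RASSF1A tumors 1 and 2. LOC143666, next after RASSF7, differed by 1.15 (limma, adjusted p = 0.001838, r = 0.89 with RASSF7). LMNTD2 and PHRF1, the other neighbors of RASSF7, differed by 0.02 and -0.22 and were not called. Of the 4 neighbors of RASSF5, IKBKE was called, at 1.50 (limma, adjusted p = 0.02221), and none of the 4 neighbors of RASSF4 or of RASSF6 was. The neighbors called were thus HRAS, LOC143666, and IKBKE, beside 19.9% of all genes called in this comparison.

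**Figure D3:**
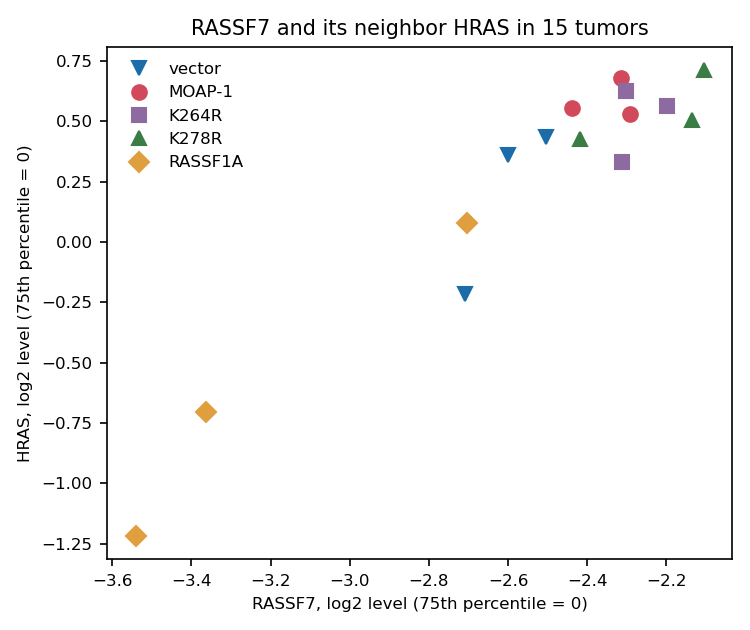
Log2 level of HRAS against that of RASSF7, each relative to the 75th percentile of the array, in the 15 tumors, with 1 point per tumor and shape and color by construct. RASSF1A tumors 1 and 2 lie at the lower left, apart from the other 13 tumors.

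Partners of the family were followed in lists of 34 genes in all, each at its brightest probe. Against vector, MOAP-1 tumors had 4 partners called higher and 1 lower (15% of all genes were called), K264R tumors 3 and 2 (18.4%), K278R tumors 3 and 1 (9.57%), and RASSF1A tumors none, as for all genes (0%). The median change of the 34 genes was 0.06, 0.05, 0.00, and 0.01 for the 4 constructs in that order.

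Of the 8 SARAH partners and Hippo kinases, 1 was called with each form of MOAP-1, namely MOB1B, a coactivator of the LATS kinases. It read 2.22, 2.49, and 1.28 with vector and 0.45, 0.58, and 0.67 with MOAP-1, without overlap. Its change was -1.43 with MOAP-1, -1.62 with K264R, and -1.23 with K278R (limma, adjusted p = 0.001114, 0.000375, and 0.005886). Of the MST genes themselves, STK3 did not pass with any construct. STK4 was lower with MOAP-1 (-0.39), K264R (-0.48), and K278R (-0.29) at less than 1.5-fold (limma, adjusted p = 0.005642, 0.001306, and 0.03377).

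Of the 11 Hippo effectors and targets, WWTR1, the transcriptional coactivator TAZ, was called with MOAP-1 at 0.75 (limma, adjusted p = 0.01902), and none was called with the mutants. Of the 8 small GTPases, RAP2A, a Rap family member, was called with K264R at 1.68 (limma, adjusted p = 0.01365). HRAS changed by -0.81 with RASSF1A, with an adjusted p of 0.3412 in limma.

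Of the 5 partners of the N-terminal members, AURKB, the mitotic kinase Aurora B, rose with MOAP-1 by 1.16, with K264R by 1.28, and with K278R by 0.94 (limma, adjusted p = 0.003766, 0.001603, and 0.01835). Every tumor of these 3 constructs, from -2.10 to -1.54, was above the vector tumors, whose highest value was -2.54. PPP1R13B, an apoptosis-stimulating protein, fell with K264R by 0.78 (limma, adjusted p = 0.005954). Of the death partners, BAX was called with MOAP-1 at 0.68, with K264R at 0.63, and with K278R at 0.90 (limma, adjusted p = 0.004112, 0.005192, and 0.002766). MOAP1 was called with MOAP-1 and with K278R, at 0.86 and 0.74, while its change of 0.55 with K264R passed the adjusted p (limma, 0.009395) but not the fold.

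Between MOAP-1 and RASSF1A tumors, 6 partners were called higher and 1 lower (19.9% of all genes). HRAS and AURKB, at 1.2 and 1.56, were among the former, and MOB1B, at -1.75, was the latter.

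**Figure D4:**
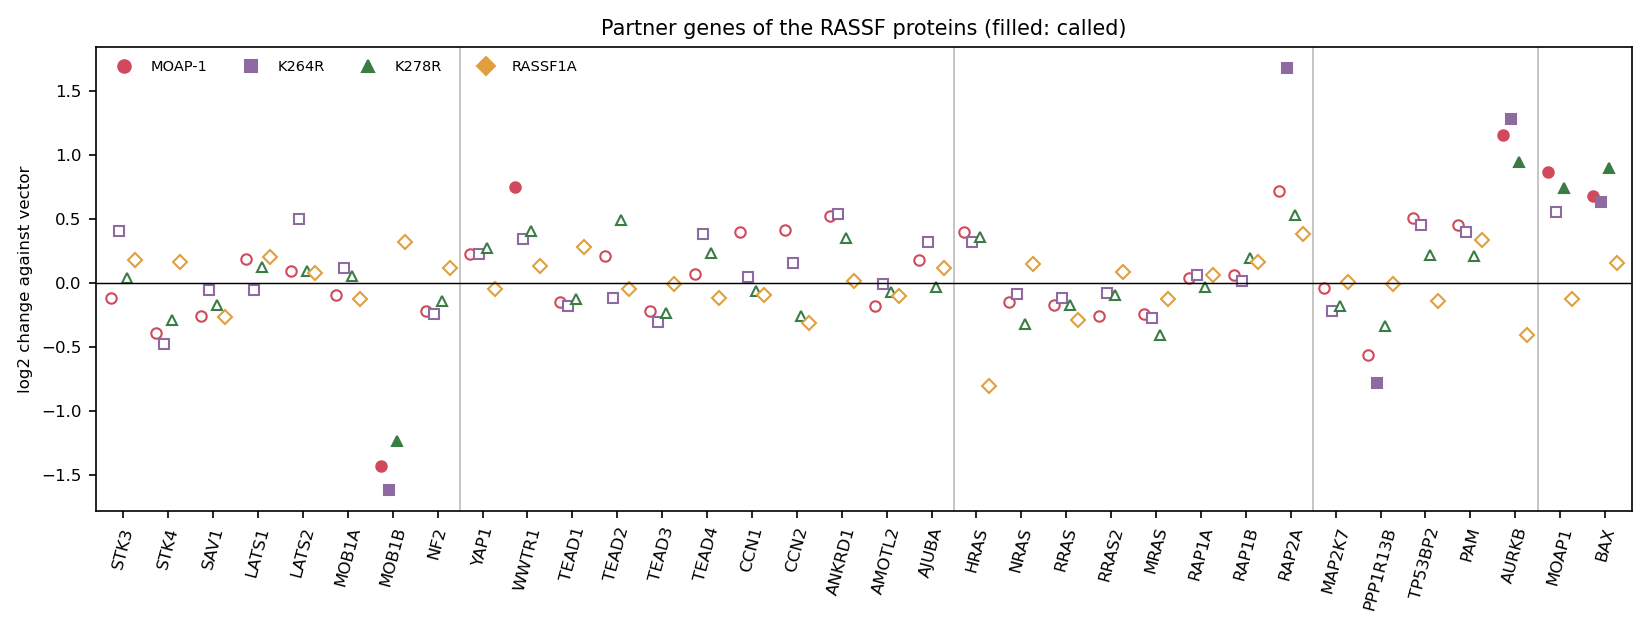
Log2 change against vector of the 34 partner genes in tumors of the 4 other constructs, from limma on 3 tumors each; vertical lines part the lists, and filled symbols are called. MOB1B lies below 0 and AURKB and BAX lie above 0 with each form of MOAP-1, and no symbol of RASSF1A is filled.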

How the data were processed

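RNA of 15 tumors was measured on single-color Agilent 4x44K arrays. The authors deposited spot intensities that Agilent Feature Extraction (10.5.1.1 per the file headers, 9.1 per the submitters' processing notes) had corrected for background, with the arrays not yet scaled to each other. A log2 table from GeneSpring GX, deposited as well, is shifted to the 75th percentile and centered by probe, and served here only as an alternative.

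For 43118 noncontrol spots the log2 intensity was taken, outlier spots were dropped, the array's 75th percentile was subtracted, and spots of 1 probe were averaged. Kept probes had signal well above background in every tumor of 1 or more constructs (30591 of 34127). Genes were named through RefSeq accessions from the RefSeq table of GRCh38.p14 (25422 probes). The array headers name another build, so no probe is placed by the coordinates of those headers. Neighboring genes were ordered by their GRCh38.p14 coordinates, and the promoter stretches carry coordinates of the same build. The limma package 3.58.1 under R 4.3.3 was fitted to all kept probes (lmFit, eBayes, construct as the only term, 10 residual degrees of freedom), with Benjamini-Hochberg adjustment over all of them, and the fit was tested on simulated data. A call needed an adjusted p under 0.05 with a fold of 1.5 or more. P values measure the spread between tumors within constructs, and the number of tumors limits the precision. The vector, K264R, and K278R tumors each lay on a single slide, so for them this spread leaves out variation between slides. Cells were injected into both flanks of the mice, and whether tumors shared a mouse is not given.

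Every probe of RASSF2 to RASSF10 is named. Partner genes are named where called against vector, up to 3 in each direction. For likeness, the 3 closest genes of the 3 members with the largest F were taken, some of which are not reported here. The members and lists were chosen with earlier results of these data known. Alternatives were quantile normalization, normexp (offset 50) on the median signals, other filters, the deposited table, array weights, slide, scan day, or replicate number in the fit, only the arrays compared, the methods' t-test, and leaving out each tumor.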

Additional observations from a re-analysis of the deposited data

Results flagged for a closer look

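Each of 4 members differed between the RASSF1A and the MOAP-1 tumors by a direct test, which is what drew attention to them. The difference, MOAP-1 minus RASSF1A on the log2 scale in limma, was 0.81 for RASSF4, 0.78 for RASSF5 at the probe A_24_P336584, 0.62 for RASSF6, and 0.85 for RASSF7. RASSF1A tumors 1 and 2 had another slide and scan day than RASSF1A tumor 3 and the vector tumors. The MOAP-1 tumors shared no slide with any RASSF1A tumor. With the scan day as a term the differences rested on RASSF1A tumor 3 alone, so the part of slide or scan day cannot be told apart.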

How the results depend on the processing

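Of the 70 changes of the 10 member probes in 7 comparisons, 41 had another sign under at least 1 alternative, 26 of them under normexp, and the 4 called differences and both RASSF3 falls that passed were not among them. With the scan day as a term, RASSF2 and RASSF10 in RASSF1A tumors went from 0.10 to -0.15 and from -0.14 to 0.12. MOAP-1 against RASSF1A gave 4 calls among the 10 probes, 0 under normexp (7.39% of all probes), 0 under normexp without spots of extreme background (12.5%), 0 by the methods' t-test after Benjamini-Hochberg adjustment (13.7%), and 1 with the scan day as a term (10.7%). Leaving out 1 tumor kept RASSF4 and RASSF7 called. RASSF5 A_24_P336584 was lost without MOAP-1 tumor 1 (0.73), RASSF1A tumor 1 (0.66), or RASSF1A tumor 2 (0.73), and RASSF6 without MOAP-1 tumor 3 (0.48) or RASSF1A tumor 2 (0.55). The 0 calls of K264R against vector became 3 under normexp without spots of extreme background (RASSF3 A_33_P3398411, RASSF5 A_24_P336584, and RASSF8), when 25.9% of all probes were called. The 0 of K278R against vector became 1 with the slide as a random block, and ranged from 0 to 1 when a tumor was left out. The 0 of RASSF1A against vector ranged from 0 to 2, with 2 without RASSF1A tumor 3, which alone shared the slide of the vector tumors. The 4 probes past the F test became 0 under normexp, 2 under normexp without spots of extreme background, 2 with the scan day, and up to 7 when a tumor was left out (K278R tumor 2).

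Partner calls against vector fell from 5 to 2 for MOAP-1 and from 4 to 0 for K278R, both under normexp and by the adjusted t-test. For K264R they went from 5 to 1 under normexp, 3 by the adjusted t-test, and 3 without K264R tumor 3. For RASSF1A they ranged from 0 to 1, with 1 without RASSF1A tumor 3. The causes were not tested. Normexp moved the median change over all probes against vector to between -0.53 and -0.31, and absolute changes there are relative to it. The labels give tumors of 1 number nothing else in common, and their deviations correlated at -0.25 to 0.37, so they were not paired, although 9 of 15 arrays were closest to their own number. With the replicate block the MOAP-1 against RASSF1A comparison again gave 4 member calls. The alternative of naming probes by a gene symbol column was not run, as the scanner files used here hold none.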
